A study of Gallus gallus with 9 samples.

Results

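A set of 40 genes of the actin cytoskeleton and of smooth muscle was examined in preadipocytes of laying hens. The genes were chosen by name, with earlier results of these data known. Of them, 39 were measured, out of 13009 genes with a probe set on the array. The annotation used here names no probe set for CNN1 (calponin 1), which was not analysed here. The measured genes comprise 3 actins, 13 proteins of the contractile filament, 3 transcriptional regulators, 14 crosslinking and adhesion proteins and 6 proteins of actin turnover. Each gene is represented by its probe set with the highest mean over the 9 arrays. Values are log2 values after GCRMA, a background correction and normalization that draws dim probe sets towards a floor, and levels are not compared between probe sets.

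The cells were isolated from abdominal fat of 3 laying hens of the Lohman strain aged 19 wk and were cultured to confluence. Total RNA was taken after 96 hr, and labelled RNA amplified from it was hybridized to Affymetrix chicken genome arrays. Cells were treated with DMIOA+20(S), which adds 5 µM of the oxysterol 20(S)-hydroxycholesterol to the cocktail, with DMIOA alone, or were left without treatment in medium with serum (control). DMIOA holds the glucocorticoid dexamethasone at 500 nM, the phosphodiesterase inhibitor IBMX at 0.5 mM, insulin at 20 µg/mL and oleic acid at 300 µM. Each group has 3 arrays, numbered 1 to 3 in their labels. The titles call the arrays biological replicates but do not say which hen each came from, so p-values measure only the spread between these arrays. In RNA of whole cultures fewer cells of a type and less RNA per cell cannot be told apart.

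Actin filaments give a fibroblast-like cell its tension and shape. Myosin II pulls on these filaments when myosin light chain kinase phosphorylates its regulatory light chain, tropomyosin and caldesmon lie along them, and α-actinin, vinculin and the LIM domain proteins tie them into bundles and to adhesions. In mammalian cells, serum response factor (SRF) binds the promoters of many of these genes. Its coactivators are myocardin in smooth muscle and the myocardin-related factors elsewhere. The myocardin-related factors, unlike myocardin, are held back by unpolymerized actin. A spread fibroblastic precursor with stress fibres becomes a rounded cell with a cortical actin shell when it fills with fat.

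The array values did not follow the labels, and this bears on every result below. The array labelled DMIOA 1 correlated at 0.994 or more with those labelled control 1 and control 2, over 38439 probe sets. These 3 arrays correlated at 0.970 to 0.976 with the other 6, which correlated at 0.989 to 0.997 among themselves. FABP4, the fatty acid binding protein of adipocytes, was 13.69, 13.73 and 13.42 on the arrays labelled DMIOA+20(S), 10.22, 13.60 and 13.39 on those labelled DMIOA, and 10.04, 10.23 and 13.39 on those labelled control. Control 3 thus carried the FABP4 level of the treated arrays, and DMIOA 1 that of the other 2 control arrays. Whether each title belongs to its array was not tested, and every fold change by label below rests on the titles. The 3 arrays DMIOA 1, control 1 and control 2 are set apart here by similarity and are not a group of the study, so they are shown and neither averaged nor tested. Of the stromal markers, COL1A1 (13.80 to 14.11), COL1A2 (13.80 to 14.05) and VIM (14.14 to 14.33) were high on all 9 arrays. ZNF423, of the same list of stromal and preadipocyte markers, lay between 5.04 and 7.24. PDGFRA, ENG, NT5E, DLK1, TCF21 and EBF2 were under 4 on every array.

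Most of the genes were highest on the same 3 arrays. The arrays labelled DMIOA 1, control 1 and control 2 held the 3 highest of the 9 values for 30 of the 39 genes (76.9%), against 17.4% of all 13009 genes, and the 3 lowest for 5 (12.8%), against 15.9% of all genes. The 5 were MYH11, FHL2, LIMA1, SVIL and TNS1. Many probe sets lie near the floor, so the count was also taken over genes with a mean of 6 or more. Of the 28 such genes in the set, 23 were highest on these arrays, against 26.0% of 5137 genes, and 4 were lowest, against 27.1%. The 3 arrays labelled replicate 3 held the 3 lowest values for 14 of the 39 genes, against 4.1% of all genes. All of these but CNN3 are also among the 30 genes above, so these counts are not independent. Some margins were small, as for ACTB, at most 13.62 on the replicate 3 arrays and at least 13.68 on the others. No gene of the 39 had its 3 lowest values on DMIOA+20(S) 1, DMIOA+20(S) 2 and DMIOA 2, against 5.39% of all genes. On these arrays 2 (MYH11 and TNS1) had their 3 highest values, against 4.46% of all genes.

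**Figure D1:**
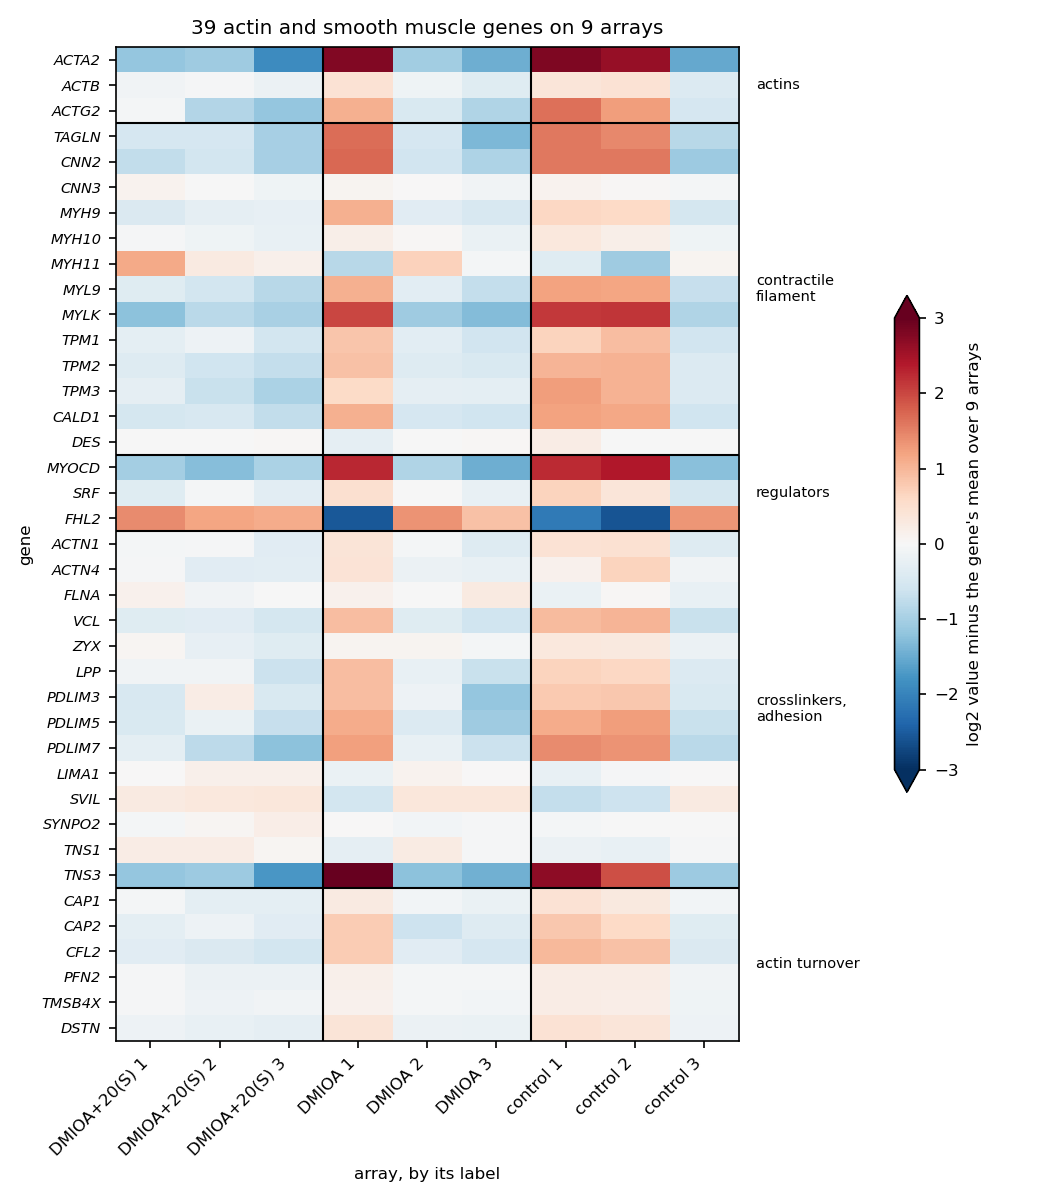
Log2 values of the 39 genes on the 9 arrays, each minus the gene's own mean over the arrays (colour, in log2 units), with arrays in columns by label and genes in rows by role. Most rows are red on DMIOA 1, control 1 and control 2 and pale or blue on the other 6 arrays, and FHL2, MYH11, SVIL and TNS1 run the other way.

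The range over the 9 arrays had a median of 1.52 among the 39 genes and 0.64 among all genes, and it was at least 1 for 25 of the 39 (64.1%, against 24.6% of all genes). Over the 6 arrays other than DMIOA 1, control 1 and control 2, the median range of the 39 genes was 0.43, and 35 of them ranged by less than 1. A log2 value of 4 on at least 3 arrays was reached by 33 of the 39. MYOCD, SRF and TNS3 reached it only on DMIOA 1, control 1 and control 2, and DES, ACTN4, FLNA, LPP, SYNPO2 and CAP2 reached it on no array.

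Among the actins, ACTA2, the smooth muscle α-actin that marks myofibroblasts, moved most. It was 4.42, 4.50 and 3.68 on the DMIOA+20(S) arrays, 8.35, 4.53 and 4.11 on the DMIOA arrays and 8.38, 8.18 and 4.04 on the control arrays (replicates 1 to 3 in each). The 3 arrays above 8 stood at least 3.65 above the other 6, so that the DMIOA+20(S) arrays overlapped with the control arrays through control 3, and the DMIOA arrays through both DMIOA 1 and control 3. ACTG2, the γ-actin of visceral smooth muscle, was 7.96, 7.12 and 6.85 on the DMIOA+20(S) arrays, 9.07, 7.55 and 7.10 on the DMIOA arrays and 9.66, 9.26 and 7.50 on the control arrays. It showed the same order with a smaller step. ACTB, the cytoplasmic β-actin often used as a reference gene, lay between 13.39 and 14.25, with the 3 highest values on the same arrays. Actin coding sequences are much alike, and signal shared between their probe sets cannot be told apart here.

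In the contractile filament, 10 of the 13 genes had their 3 highest values on DMIOA 1, control 1 and control 2. Over all genes this share was 17.4%. MYLK, the myosin light chain kinase, was 9.64, 10.06 and 9.90 on the DMIOA+20(S) arrays, 12.88, 9.79 and 9.57 on the DMIOA arrays and 12.98, 13.01 and 9.97 on the control arrays. MYL9, the regulatory light chain that this kinase phosphorylates, was 9.77, 9.58 and 9.28 on the DMIOA+20(S) arrays, 11.20, 9.81 and 9.41 on the DMIOA arrays and 11.32, 11.30 and 9.44 on the control arrays. Both genes separated the same 3 arrays from the other 6 with a gap, which was 2.82 for MYLK and 1.39 for MYL9.

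TAGLN (transgelin, an actin-binding protein of smooth muscle) was 8.49, 8.50 and 8.01 on the DMIOA+20(S) arrays, 10.68, 8.49 and 7.66 on the DMIOA arrays and 10.58, 10.45 and 8.17 on the control arrays. CNN2 (calponin 2, which binds actin and restrains myosin) was 9.28, 9.46 and 9.02 on the DMIOA+20(S) arrays, 11.73, 9.43 and 9.08 on the DMIOA arrays and 11.59, 11.60 and 8.91 on the control arrays. TPM3, a tropomyosin found in most cell types, was 7.26, 6.87 and 6.60 on the DMIOA+20(S) arrays, 8.11, 7.26 and 7.25 on the DMIOA arrays and 8.79, 8.59 and 7.14 on the control arrays. For TPM3 the array labelled DMIOA 1 lay below control 1 and control 2 and above the other 6. TPM1, TPM2 and CALD1 (caldesmon) ranged by 1.52 to 1.95, and the non-muscle myosin heavy chains MYH9 and MYH10 by 1.61 and 0.54, all with the same 3 arrays highest.

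The exceptions in the filament were MYH11, CNN3 and DES. MYH11, the heavy chain of smooth muscle myosin, was 5.97, 5.12 and 4.99 on the DMIOA+20(S) arrays, 4.01, 5.54 and 4.78 on the DMIOA arrays and 4.49, 3.77 and 4.92 on the control arrays. It was thus lowest on the 3 arrays where MYL9 and MYLK were highest. CNN3, the calponin of non-muscle cells, had by its chosen probe set the smallest range of the detected genes. That probe set was 12.70, 12.59 and 12.47 on the DMIOA+20(S) arrays, 12.69, 12.62 and 12.49 on the DMIOA arrays and 12.70, 12.65 and 12.54 on the control arrays. A second CNN3 probe set (mean 11.38) ranged by 1.35 and correlated with it at only 0.265. DES, the intermediate filament protein desmin of muscle, was under 2 on all 9 arrays.

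**Figure D2:**
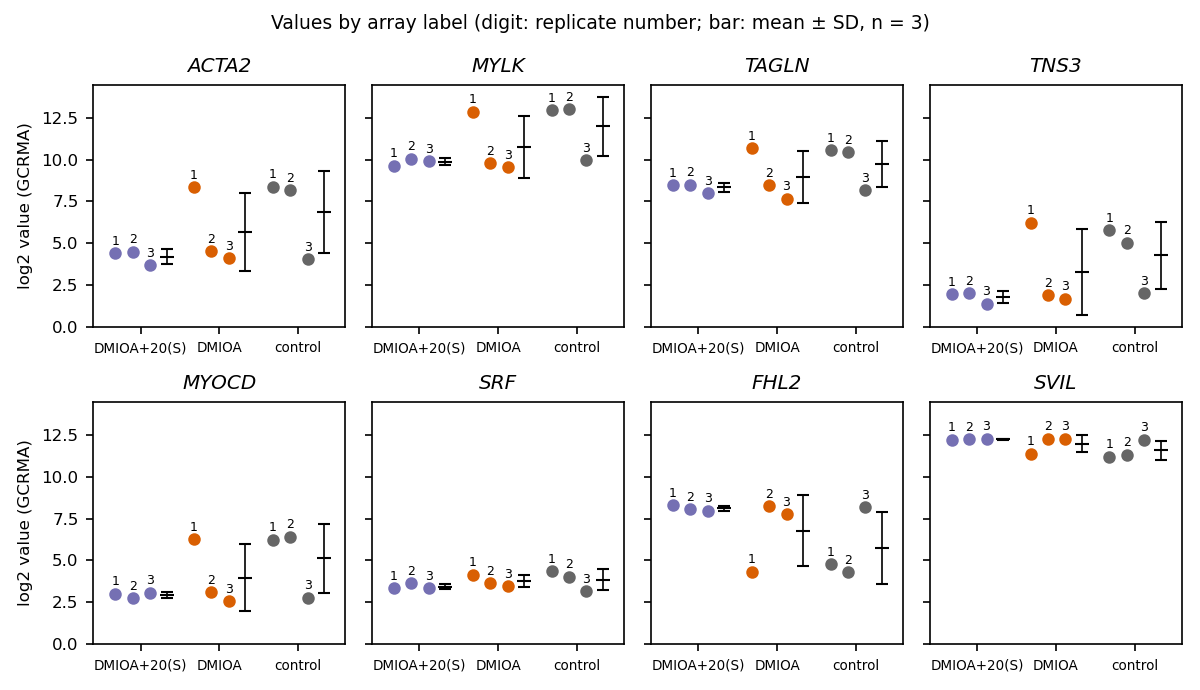
Log2 values (vertical axis) of 8 genes on each array by label (horizontal axis), with points numbered by replicate and the mean ± SD of the 3 arrays drawn beside them. In 7 panels DMIOA 1, control 1 and control 2 stand together above (ACTA2, MYLK, TAGLN, TNS3, MYOCD) or below (FHL2, SVIL) the other 6 arrays, and for SRF the gap is 0.39.

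Of the transcriptional regulators, MYOCD (myocardin, the coactivator of SRF in heart and smooth muscle) was 3.00, 2.73 and 3.06 on the DMIOA+20(S) arrays, 6.27, 3.11 and 2.55 on the DMIOA arrays and 6.25, 6.42 and 2.76 on the control arrays. Values near 3 lie close to the floor of these arrays, whose medians were 2.11 to 2.14. MYOCD thus stood clear of the floor only on DMIOA 1, control 1 and control 2, by a gap of 3.14. This rests on its chosen probe set. A second MYOCD probe set was 1.79 to 2.37 on all arrays and correlated with the chosen one at 0.115. SRF was 3.32, 3.62 and 3.35 on the DMIOA+20(S) arrays, 4.15, 3.65 and 3.45 on the DMIOA arrays and 4.34, 4.03 and 3.14 on the control arrays. SRF had the same order as MYOCD, with a gap of 0.39 and low values throughout. FHL2, a LIM protein that binds SRF and other transcription factors in mammalian cells, ran opposite to them, at 8.30, 8.07 and 7.98 on the DMIOA+20(S) arrays, 4.33, 8.23 and 7.75 on the DMIOA arrays and 4.76, 4.28 and 8.19 on the control arrays. Its lowest value on the 6 high arrays was 2.99 above its highest on the other 3, which are the arrays where MYOCD was highest.

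Among the crosslinking and adhesion proteins, 9 of 14 genes were highest on DMIOA 1, control 1 and control 2, against 17.4% of all genes. On the same arrays 3 of the 14 were lowest, against 15.9% of all genes. TNS3, a tensin that links actin to integrins, had the largest range of all 39 genes and was 1.95, 2.02 and 1.37 on the DMIOA+20(S) arrays, 6.23, 1.88 and 1.67 on the DMIOA arrays and 5.79, 5.03 and 2.01 on the control arrays. It was at the floor on 6 arrays. Its other probe sets stayed under 4 on all arrays and correlated with the chosen one at 0.611 and 0.919. Only the latter had the same 3 arrays highest. TNS1, a relative of TNS3, was high on all arrays (12.15 to 12.67). It had its 3 lowest values where the chosen probe set of TNS3 had its 3 highest.

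The PDLIM proteins pair a PDZ domain that binds α-actinin with LIM domains. PDLIM7 was 7.0, 6.49 and 6.05 on the DMIOA+20(S) arrays, 8.52, 7.06 and 6.63 on the DMIOA arrays and 8.70, 8.63 and 6.48 on the control arrays. PDLIM5 was 9.69, 9.96 and 9.47 on the DMIOA+20(S) arrays, 11.26, 9.75 and 9.10 on the DMIOA arrays and 11.28, 11.41 and 9.50 on the control arrays. PDLIM3, which is found at the Z discs of striated muscle, was 8.86, 9.55 and 8.88 on the DMIOA+20(S) arrays, 10.26, 9.18 and 8.17 on the DMIOA arrays and 10.12, 10.14 and 8.88 on the control arrays. PDLIM3 varied more over the 6 low arrays than any other of the 39 genes, by 1.38.

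VCL (vinculin, which couples talin to actin at focal adhesions) ranged by 1.68, ACTN1 (α-actinin 1) by 0.83 and ZYX (zyxin) by 0.69, with the same 3 arrays highest, though for ZYX by less than 0.01. SVIL (supervillin, which binds myosin and actin at the membrane) was 12.22, 12.25 and 12.29 on the DMIOA+20(S) arrays, 11.39, 12.28 and 12.28 on the DMIOA arrays and 11.22, 11.33 and 12.22 on the control arrays. Over the 6 arrays where it was high, SVIL differed by only 0.07. LIMA1, a LIM protein that bundles actin, was 10.77, 10.92 and 10.90 on the DMIOA+20(S) arrays, 10.57, 10.86 and 10.76 on the DMIOA arrays and 10.54, 10.73 and 10.77 on the control arrays. Its 3 lowest values lay on DMIOA 1, control 1 and control 2, by a gap of 0.03.

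All 6 genes of actin turnover were highest on DMIOA 1, control 1 and control 2, against 17.4% of all genes. They had ranges of 0.37 to 1.52. The largest range was that of CFL2 (cofilin 2, which severs filaments), and its relative DSTN (destrin) ranged by 0.70. CAP2, a cyclase-associated protein, ranged by 1.44 at values no higher than 3.20. TMSB4X, thymosin β4, which binds unpolymerized actin, was 14.39, 14.28 and 14.33 on the DMIOA+20(S) arrays, 14.55, 14.38 and 14.35 on the DMIOA arrays and 14.65, 14.63 and 14.31 on the control arrays. These 9 values lay within 0.37. CAP1 and PFN2 (profilin 2) ranged by 0.74 and 0.39.

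To ask which genes differed by treatment as labelled, the groups were compared with limma over all 9 arrays, and calls required a Benjamini-Hochberg adjusted p under 0.05 together with a difference of at least 2-fold. None of the 39 genes was called in any of the 3 comparisons. The split of the arrays falls inside the DMIOA and control labels and widens the spread there, as for ACTA2 (SD 2.34 and 2.45, n = 3 each). The absence of calls by label therefore cannot show that treatment had no effect on these genes. In DMIOA against control, 0 of 38439 probe sets (0%) were called and 905 (2.35%) had an unadjusted p under 0.05, none of them a chosen probe set of the 39 genes and 2 of the 100 probe sets that name these genes (2%), both near the floor. In DMIOA+20(S) against DMIOA, 0 probe sets (0%) were called and 1099 (2.86%) had an unadjusted p under 0.05, again no chosen one and 1 of the 100 (1%), near the floor. In DMIOA+20(S) against control, 2 probe sets (0.0052%) were called, for TNPO1 and RPS6KA6, which are not among the 39 and were named after their values were seen. Here 3880 probe sets (10.1%) had an unadjusted p under 0.05, with those chosen for TPM3, TPM2 and CAP1 among them, which is 3 of the 39 genes, and 6 of the 100 probe sets (6%). The methods' t-test at a 2-fold difference called no probe set after adjustment in any comparison, and no chosen probe set of the 39 genes without adjustment.

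By label, most of the 39 genes had negative fold changes in each comparison, none of which passed the test. The median log2 fold change was -0.23 in DMIOA against control, with 32 of 39 genes below 0, beside -0.01 and 51.8% over all genes. It was -0.24 in DMIOA+20(S) against DMIOA, with 32 below 0, beside -0.01 and 52.3%, and -0.54 in DMIOA+20(S) against control, with 32 below 0, beside -0.01 and 51.2%. Each label enters 2 of these comparisons, which therefore share arrays. In DMIOA against control the lowest values were MYLK (-1.24, SE 1.03), ACTA2 (-1.20, SE 1.38), MYOCD (-1.17, SE 1.16) and TNS3 (-1.01, SE 1.32), and the highest were FHL2 (1.03, SE 1.22), SVIL (0.40, SE 0.31), MYH11 (0.38, SE 0.45) and FLNA (0.26, SE 0.11). All had an adjusted p of 0.994 in limma. FLNA, the crosslinker filamin A, was under 3 on all arrays. The median of the 39 genes was -0.63 without DMIOA 1 and -0.52 without control 3.

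In DMIOA+20(S) against DMIOA the lowest were TNS3 (-1.48, SE 1.32), ACTA2 (-1.47, SE 1.38), MYOCD (-1.05, SE 1.16) and PDLIM7 (-0.89, SE 0.68), and the highest were FHL2 (1.35, SE 1.22), MYH11 (0.59, SE 0.45), SVIL (0.27, SE 0.31) and TNS1 (0.17, SE 0.14). Each had an adjusted p of 0.977 in limma. Without DMIOA 1 the median of the 39 genes was -0.0037, and TNS3 (0.0038) and MYOCD (0.10) lay above 0.

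DMIOA+20(S) against control had the median farthest from 0. ACTA2 averaged 4.20 ± 0.45 on the DMIOA+20(S) arrays and 6.87 ± 2.45 on the control arrays (SD, n = 3 each), a log2 fold change of -2.67 (SE 1.38, adjusted p = 0.506 in limma). MYLK stood at -2.12 (SE 1.03), TNS3 at -2.49 (SE 1.32) and MYOCD at -2.21 (SE 1.16). TNS3 and MYOCD lay near the floor on the DMIOA+20(S) arrays, so the size of their differences in the 3 comparisons depends on the floor. FHL2 (2.37, SE 1.22), MYH11 (0.97, SE 0.45), SVIL (0.67, SE 0.31) and TNS1 (0.31, SE 0.14) were highest. The SD was 0.04 to 0.53 for these 8 genes on the DMIOA+20(S) arrays and 0.09 to 2.45 on the control arrays. The adjusted p of the 39 genes ran between 0.492 and 0.893. Without control 3 the median of the 39 genes was -0.92, against -0.54 with it, ACTA2 was at -4.08, and the lowest adjusted p of any probe set was 0.109, so no call was made.

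The remaining genes given by array had smaller log2 fold changes here than ACTA2, TNS3, MYOCD, MYLK and FHL2. Among them were ACTG2 (-1.50, SE 0.67), CNN2 (-1.45, SE 0.86), PDLIM7 (-1.42, SE 0.68), TAGLN (-1.40, SE 0.84), TPM3 (-1.26, SE 0.44), MYL9 (-1.14, SE 0.59), PDLIM5 (-1.02, SE 0.63) and PDLIM3 (-0.62, SE 0.54). SRF (-0.41, SE 0.31), TMSB4X (-0.20, SE 0.11), LIMA1 (0.19, SE 0.11) and CNN3 (-0.04, SE 0.10) lay closest to 0 among the genes given by array.

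Separation of the labelled groups was counted beside all genes. In DMIOA against control no gene had 3 arrays of one label all above or all below the 3 of the other, where 1.96% of all genes did so upward and 2.3% downward. In DMIOA+20(S) against DMIOA there was again none, where 3.11% of all genes separated upward and 3.47% downward. In DMIOA+20(S) against control, 4 genes separated upward (MYH11, LIMA1, SVIL and TNS1), where 6.66% of all genes did, and 0 downward, where 8.96% of all genes did. The 4 separated by small margins. Their lowest DMIOA+20(S) value and their control 3 value were 4.99 and 4.92 for MYH11 and 12.47 and 12.38 for TNS1. For LIMA1 (10.77) and SVIL (12.22) these 2 values were the same to 2 decimals. Fewer arrays separate more easily. Counting both directions, 35 of the 39 (89.7%, beside 49.6% of all genes) separated in this comparison without control 3 and 13 (33.3%, beside 30.3%) without DMIOA+20(S) 1. Leaving out any other of its arrays gave 4 to 6 (10.3% to 15.4%, beside 20% to 26.6%). In DMIOA against control the count was 16 (41%, beside 25% of all genes) without control 3 and 7 (17.9%, beside 21.1%) without DMIOA 1. It was 0 or 1 (beside 8.33% to 10.1%) without any other of the arrays compared. In DMIOA+20(S) against DMIOA it was 12 (30.8%, beside 19.4% of all genes) without DMIOA+20(S) 1, 8 (20.5%, beside 14.3%) without DMIOA 3 and 5 (12.8%, beside 18.7%) without DMIOA 2. Without DMIOA 1 it was only 1 (2.56%, beside 17%). It was 1 (2.56%, beside 11.1%) without DMIOA+20(S) 2 and 0 (beside 14.3%) without DMIOA+20(S) 3.

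Set out by replicate number, each comparison rested on 1 or 2 of its 3 pairs of arrays. In DMIOA minus control, 19 of 39 genes differed by at least 2-fold in replicate 2 (17 lower and 2 higher, beside 10.66% of all genes), and 0 in replicates 1 and 3 (beside 0.81% and 0.38%). ACTA2 differed by -0.03, -3.65 and 0.07 in replicates 1, 2 and 3. For DMIOA+20(S) minus DMIOA, 21 genes differed in replicate 1 (19 lower and 2 higher, beside 11.98% of all genes). In replicates 2 and 3, 0 did (beside 1.02% and 1.24%). ACTA2 differed in this comparison by -3.94, -0.03 and -0.44, and FHL2 by 3.98, -0.16 and 0.23, in replicates 1, 2 and 3. For DMIOA+20(S) minus control, 22 genes differed in replicate 1 and 19 in replicate 2 (beside 11.03% and 11.3% of all genes). In replicate 3, 0 did (beside 0.68%). The labels word replicate 3 differently from replicates 1 and 2, and in these 3 arrays no gene of the 39 differed by more than 0.72 between any 2 labels. Differences were as small in replicate 1 of DMIOA minus control (-0.68 to 0.46) and replicate 2 of DMIOA+20(S) minus DMIOA (-0.57 to 0.47). Each pair with 2-fold differences set DMIOA 1, control 1 or control 2 against an array outside these 3.

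**Figure D3:**
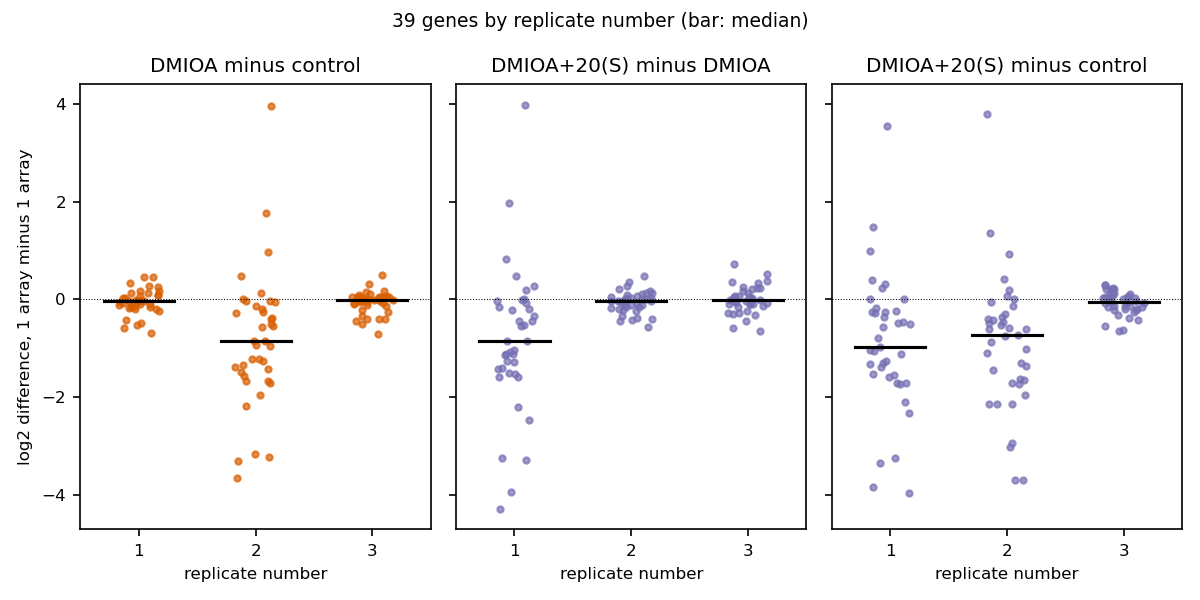
Log2 difference of each of the 39 genes (points) between 1 array and another of the same replicate number (horizontal axis), in 3 panels by comparison, with the median as a bar. Differences spread widely in 1 pair for DMIOA minus control (replicate 2), in 1 for DMIOA+20(S) minus DMIOA (replicate 1) and in 2 for DMIOA+20(S) minus control, and stay within 0.72 in the other pairs.

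Most of the genes followed one another closely over the 9 arrays. Correlation of each gene with the median of the other 38, each centred on its own mean, was above 0.9 for 27 genes and below 0 for 8, as a description over 9 arrays that share the split given above. It was highest for VCL (0.995) and MYL9 (0.994) and lowest for SVIL (-0.982) and FHL2 (-0.970). Among all 3196 genes that ranged by at least 1, the 5 most like the median of the 39 were ACTA1 (r = 0.996), SLC41A2 (0.996), VCL (0.996), SCARB1 (0.995) and MFAP5 (0.995), of which VCL is one of the 39. ACTA1, the α-actin of skeletal muscle, was 8.38, 8.68 and 7.73 on the DMIOA+20(S) arrays, 11.43, 8.40 and 7.61 on the DMIOA arrays and 11.63, 11.56 and 7.68 on the control arrays. MFAP5, a protein of extracellular microfibrils, ranged by 4.35 in the same order.

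Other probe sets of the same genes also varied over the arrays. Besides the 39 chosen, 61 probe sets carry the name of 1 of these genes, and 27 of them, from 16 genes, had a mean of 6 or more over the 9 arrays. Of these, 20 placed DMIOA 1, control 1 and control 2 as the chosen probe set of the gene did (3 highest, 3 lowest or neither), and 16 correlated above 0.9 with it. All 8 probe sets of TPM1 had these 3 arrays highest, with ranges of 1.52 to 4.46. A second probe set named ACTB ran against the first (r = -0.963), with 7.64, 7.34 and 7.63 on the DMIOA+20(S) arrays, 6.87, 7.80 and 7.96 on the DMIOA arrays and 7.12, 7.03 and 7.87 on the control arrays. The other genes with a probe set of another order were CAP1, LIMA1, TNS1 and ZYX.

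The array also carries control probe sets along the β-actin transcript, and these varied with their position. The 3′ probe set was 13.58, 13.73 and 13.59 on the DMIOA+20(S) arrays, 14.12, 13.68 and 13.41 on the DMIOA arrays and 14.12, 14.27 and 13.34 on the control arrays. The 5′ probe set was 11.28, 12.62 and 12.25 on the DMIOA+20(S) arrays, 13.64, 11.19 and 10.78 on the DMIOA arrays and 12.82, 12.96 and 11.03 on the control arrays, a range far wider than at the 3′ end. For elongation factor EF1A the 3′ minus 5′ difference was 0.96, 0.24 and 0.18 on the DMIOA+20(S) arrays, 0.31, 0.93 and 0.82 on the DMIOA arrays and 0.97, 0.85 and 0.74 on the control arrays. DMIOA+20(S) 2, DMIOA+20(S) 3 and DMIOA 1 thus had the smallest EF1A gap, and GAPDH had its 3 smallest gaps on the same arrays. For β-actin the difference was 2.30, 1.11 and 1.34 on the DMIOA+20(S) arrays, 0.48, 2.49 and 2.63 on the DMIOA arrays and 1.30, 1.31 and 2.31 on the control arrays. It was thus at most 1.34 on DMIOA 1, control 1, control 2, DMIOA+20(S) 2 and DMIOA+20(S) 3 and at least 2.30 on the other 4.

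**Figure D4:**
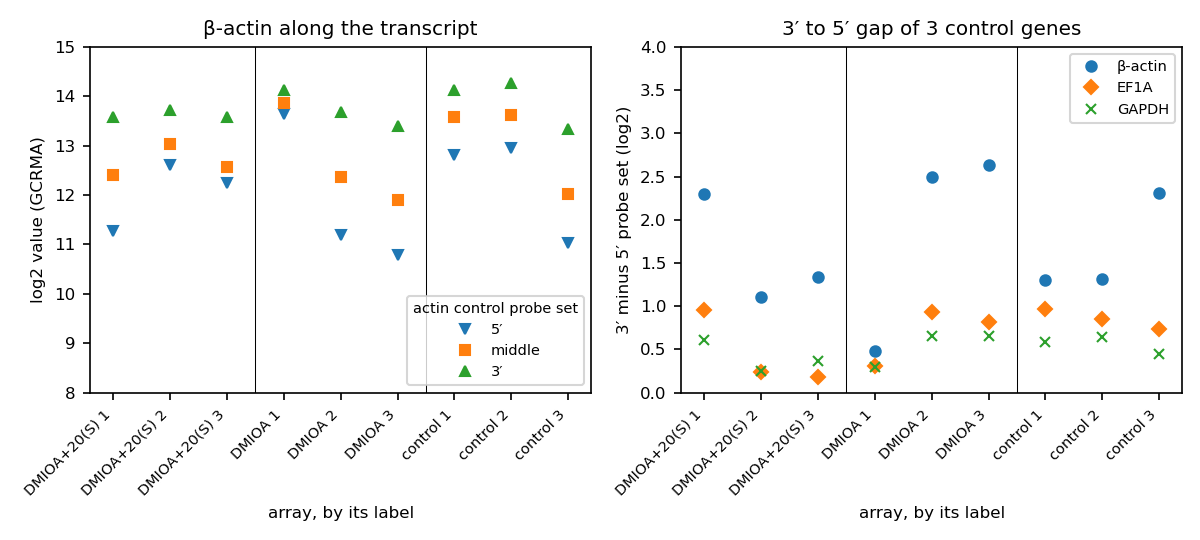
Left, log2 values of 3 β-actin control probe sets (5′, middle and 3′) on the 9 arrays by label; the vertical axis starts at 8. Right, the log2 difference of the 3′ and 5′ control probe sets of β-actin, EF1A and GAPDH on the same arrays, which for EF1A is 0.18 to 0.31 on DMIOA+20(S) 2, DMIOA+20(S) 3 and DMIOA 1 and at least 0.74 on the others.

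Of the 100 probe sets of the 39 genes, 5 (5%) had their 3 highest values on DMIOA+20(S) 2, DMIOA+20(S) 3 and DMIOA 1, against 3.77% of all probe sets. They belong to CAP1 (2 probe sets), CNN3, LIMA1 and SYNPO2, and only that of SYNPO2, at the floor, is a chosen one. The second probe set of CAP1 was 7.27, 8.93 and 8.54 on the DMIOA+20(S) arrays, 8.83, 6.88 and 6.91 on the DMIOA arrays and 7.70, 7.75 and 7.14 on the control arrays. The part of the 3′ to 5′ gap in these values was not tested.

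Further genes of the pathway were taken from lists made by name, also with earlier results of these data known. None of them was called by limma in any comparison. Of 32 measured genes of actin assembly and crosslinking, 22 had their 3 highest values on DMIOA 1, control 1 and control 2. Over all genes this share was 17.4%. Only 1 (TMOD3) had its 3 lowest values there, against 15.9% of all genes. The largest ranges were those of EZR (ezrin, which ties actin to the membrane, 2.62), PDLIM1 (2.50), TMSB15B (2.39) and PDLIM4 (2.22). EZR was 3.61, 3.26 and 3.35 on the DMIOA+20(S) arrays, 5.88, 3.40 and 3.47 on the DMIOA arrays and 5.77, 5.64 and 3.37 on the control arrays, and so left the floor on the same 3 arrays as MYOCD.

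Markers of other cells were read on the same arrays. Of 18 skeletal and cardiac muscle markers, 14 were under 4 on all arrays, including MYOD1, MYOG, MYF5 and PAX7, the regulators of muscle precursors. The arrays DMIOA 1, control 1 and control 2 held the 3 highest values for 3 of the 18, against 17.4% of all genes. These were ACTA1, MYH15 and MYL1, of which MYL1 was at the floor (1.24 to 1.68). The same arrays held the 3 lowest values for 1 (MYOG), against 15.9% of all genes. MYH15, a myosin heavy chain, was 6.02, 6.51 and 6.12 on the DMIOA+20(S) arrays, 10.22, 5.79 and 6.27 on the DMIOA arrays and 10.49, 10.27 and 6.14 on the control arrays. Of 8 pericyte markers, RGS5, MCAM, KCNJ8 and GUCY1A3 were under 4 on all arrays. CSPG4 was the only one highest on these 3 arrays, against 17.4% of all genes. ANGPT1 (range 2.29) was the only one lowest there, against 15.9%. PDGFRB lay between 6.64 and 7.13.

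Most macrophage and leukocyte markers had the array order of most of the 39 genes. Of 10 measured, 7 had their 3 highest values on DMIOA 1, control 1 and control 2, against 17.4% of all genes. The sum of their 10 log2 values was 28.3 to 28.7 on the DMIOA+20(S) arrays, 28.3 to 40.1 on the DMIOA arrays and 27.7 to 41.9 on the control arrays. PTPRC, the CD45 antigen of leukocytes, was 2.67, 2.21 and 2.44 on the DMIOA+20(S) arrays, 5.37, 2.18 and 2.47 on the DMIOA arrays and 5.12, 5.16 and 1.94 on the control arrays. NCF4, of the leukocyte NADPH oxidase, had the largest range, with 1.60, 1.73 and 1.84 on the DMIOA+20(S) arrays, 6.29, 1.31 and 1.65 on the DMIOA arrays and 6.59, 6.37 and 1.62 on the control arrays. CYBB, MARCO, TLR4 and C1QA were under 4 on all arrays, and of these only CYBB had that order. CSF1R and SPI1 reached 4 on only 2 arrays each.

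Of 8 endothelial markers, CDH5 (3.94 to 7.14) and VWF (under 3 on all arrays) were highest on the same 3 arrays, against 17.4% of all genes. TEK and ESAM, under 4 throughout, were lowest there, against 15.9% of all genes. CDH5 was also 6.15 on DMIOA 3. PECAM1 (3.00 to 5.05) had neither order, and KDR, TIE1 and EGFL7 were also under 4 throughout. The sum of the 8 was 20.0 to 20.7 on the DMIOA+20(S) arrays, 20.2 to 23.5 on the DMIOA arrays and 21.0 to 23.3 on the control arrays. Of 10 adipocyte markers, 5 had their 3 lowest values on DMIOA 1, control 1 and control 2, against 15.9% of all genes. These were FABP4, CIDEC and CD36 and, under 4 on all arrays, PLIN1 and ADIPOQ. None had its 3 highest values there, against 17.4% of all genes. PPARG (7.95 to 9.30) and LPL (4.82 to 6.51) had neither order. CIDEC, a lipid droplet protein, was 8.84, 8.78 and 7.86 on the DMIOA+20(S) arrays, 3.41, 9.01 and 7.73 on the DMIOA arrays and 3.37, 3.10 and 8.32 on the control arrays. The 12 stromal markers had 1 gene highest there (THY1), against 17.4% of all genes, and 5 lowest, against 15.9%. The 5 were COL3A1 and VIM, with ranges of only 0.48 and 0.19, and PDGFRA, TCF21 and EBF2, under 4 on all arrays. ZNF423 had the largest range of the 12 (2.2) and neither order. Both measured mesothelial markers were under 4 on all arrays. Of 9 reference genes, 3 were highest and 3 lowest on DMIOA 1, control 1 and control 2, against 17.4% and 15.9% of all genes. The 9 had ranges of 0.19 (GAPDH) to 1.09 (HPRT1). The part of these cell types in the values of the 39 genes was not tested.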

How the data were processed

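The deposited table holds log2 values per probe set that the authors made with GCRMA in FlexArray (its version is not given in the sources used here), which corrects background, normalizes across arrays and shrinks differences between dim probe sets. Of its 38535 probe sets, 96 control probe sets were left out of the tests. The platform annotation gave 1 gene symbol to 27168 of the rest, several to 177 and none to 11094, and the probe set with the highest mean over the 9 arrays stood for each of 13009 genes. Groups came from the labels alone. For each comparison, lmFit and eBayes of limma 3.58.1 (R 4.3.3) were run on all 9 arrays, 3 per group, and p-values were adjusted by Benjamini-Hochberg over all 38439 probe sets. This step had been run on simulated data with independent noise and changes added by label. Those data lacked the split of the arrays described above, so they cannot show how the step behaves under it. Low values were under a log2 value of 4. Plots and counts were made with Python 3.11.15, pandas 2.3.3, numpy 2.4.6 and matplotlib 3.10.9. The number of arrays limits the precision.

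Alternatives covered the test, the variance model, normalization, filters, probe set choice, blocks and leaving out each array. The gene set, the lists of pathway and marker genes and the array sets were chosen with earlier results of these data known. Values by array are given for the 14 genes of the set with the largest range, MYOCD and SRF, the 3 of smallest range with a mean of at least 4 and the 2 of lowest correlation with the others. Fold changes are given for these and for the 4 highest and 4 lowest of each comparison. Of the other lists, genes of large range and genes that define a cell type were named, some after their values were seen. The result of 1 further list of pathway genes is not reported here. Sequences were not analysed here.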

Additional observations from a re-analysis of the deposited data

How the results depend on the processing

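No gene of the set was called under any alternative, and 1167 of 1194 fold changes of the 21 genes named with one kept their sign and their side of the threshold. The lowest adjusted p among them was 0.0528, for TPM3 in DMIOA+20(S) against control with array weights. With the replicate number as a block, 0 probe sets were called in DMIOA+20(S) against control, where the fit without the block called 2, and the block changed no other call. The numbers were not taken as pairs, since deviations of same-numbered arrays from their group means correlated at 0.702, -0.557 and 0.704 between DMIOA and control, at -0.297, 0.001 and 0.196 between DMIOA+20(S) and DMIOA, and at 0.045, 0.136 and 0.084 between DMIOA+20(S) and control (replicates 1 to 3). The count was also 0 with the wording of the labels as a block, which sets replicate 3 apart. The labels name no batch. Further settings with a count of 0 were replicates 1 and 2 only, the 6 arrays compared, low values filtered, and the trend and robust variance model. The methods' t-test adjusted and each array left out also gave 0 (0 to 0), and quantile normalization gave 1. The methods' t-test without adjustment passed 1 probe set in DMIOA against control, 5 in DMIOA+20(S) against DMIOA and 221 in DMIOA+20(S) against control. The cause of these changes was not tested.

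Genes of the set with no overlap between labels numbered 16 for DMIOA against control (41%, beside 32.2% of all genes), 8 for DMIOA+20(S) against DMIOA (20.5%, beside 23.5%) and 35 for DMIOA+20(S) against control (89.7%, beside 58.4%) in replicates 1 and 2 only. With each array left out they ran between 0 and 16 in the first of these (all genes 8.33% to 25%), 0 and 12 in the second (11.1% to 19.4%), and 4 and 35 in the last (20% to 49.6%). The median of the 39 genes ran between -0.63 (without DMIOA 1) and -0.11 in DMIOA against control, between -0.47 (without DMIOA 3) and -0.0037 (without DMIOA 1) in DMIOA+20(S) against DMIOA, and between -0.92 (without control 3) and -0.38 in DMIOA+20(S) against control.

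The sign of a fold change turned in 27 cases, to values no larger in size than 0.42. With 1 array left out, DMIOA against control ran between -0.0020 and 0.76 for MYH11, -1.04 and 0.0117 for PDLIM3, -0.44 and 0.16 for SRF, -0.0734 and 0.0282 for CNN3, and -0.0206 and 0.13 for LIMA1. DMIOA+20(S) against DMIOA ran between -2.28 and 0.0038 for TNS3, -1.76 and 0.10 for MYOCD, -1.46 and 0.19 for MYLK, -1.25 and 0.26 for TAGLN, -0.80 and 0.28 for PDLIM5, -0.63 and 0.42 for PDLIM3, -0.0734 and 0.0416 for CNN3, and -0.0279 and 0.42 for SVIL. All 8 turned on leaving out DMIOA 1, and PDLIM3 and CNN3 each also without 1 DMIOA+20(S) array. CNN3 ran between -0.10 and 0.0141 in DMIOA+20(S) against control. Quantile normalization turned TMSB4X in DMIOA against control (0.0185) and CNN3 in DMIOA+20(S) against DMIOA (0.0171), and array weights turned PDLIM5 (0.0644) and PDLIM3 (0.29) in DMIOA+20(S) against DMIOA. The mean over all probe sets turned CNN3 in the 3 comparisons (0.0537, 0.13 and 0.19). Low signal limits SRF, MYOCD, TNS3, DES, ACTN4, FLNA, LPP, SYNPO2 and CAP2, whose values lie near the floor on most arrays.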
